A study of Homo sapiens with 8 samples.

Results

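The 8 genes described here encode transcription factors of the hepatocyte lineage: HNF4A and HNF4G, FOXA1, FOXA2 and FOXA3, CEBPA, ONECUT1, and PROX1. They were chosen by symbol, as the rows of the deposited count table that carry one of these names, and make up 8 of its 31710 genes. All 8 passed the filter on low counts, which kept 16972 genes. RNA was sequenced from Hep3B and Huh7, both established human liver cancer cell lines, with 1 poly(A) library for each of 4 treatments in each line and 8 libraries in all. Cells received XL413 for 10 days and then sertraline for 24 hours (both drugs), XL413 for 10 days, sertraline alone, or no drug (control). The labels give the 24 hours for pretreated cells only, and the same duration was assumed for sertraline alone. XL413 blocks the replication kinase CDC7 and was meant to make the cells senescent, and sertraline is an antidepressant that blocks serotonin uptake. The sources used here give no doses.

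Hepatocytes are specified and kept by a small set of DNA-binding proteins that act together on the promoters and enhancers of liver genes. The FOXA proteins bind sites in closed chromatin and open them for others, the HNF4 nuclear receptors and CEBPA then drive genes for plasma proteins, clotting factors and lipid and glucose metabolism, and ONECUT1 and PROX1 take part in the choice between the hepatocyte and bile duct fates. These factors bind each other's genes, so that their levels are linked in the liver.

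Total counts ranged from 20275392 in the Hep3B library given XL413 to 30842770 in the Hep3B library given both drugs, and the 8 genes had between 305 and 11873 reads per library. Each treatment had 1 library in a line, so Hep3B and Huh7 stood as its 2 replicates. A p-value for a treatment thus measures how unlike their responses were, and nothing in the labels says that libraries came from separate cultures. All 13 hepatocyte markers were above 1 CPM (counts per library total, scaled by TMM) in both lines, with sums of 32030 to 49887 CPM in Hep3B and 23652 to 32792 CPM in Huh7. In bulk RNA, fewer cells that express a gene and less of its RNA per cell cannot be told apart.

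Promoter sequences are shown for the genes that the results turn on, FOXA1 and CEBPA, and for HNF4A, whose alternative starts are counted together in these data. Each runs from 250 bases before to 50 bases after a RefSeq start site on GRCh38.p14, 5′ to 3′ on the gene's strand, with capitals on the matches to the motifs searched. On GRCh38 the deposited table places the whole genes at chr14:37589984-37596059 for FOXA1, chr19:33299934-33302564 for CEBPA and chr20:44355700-44432845 for HNF4A.
FOXA1, chr14:37595200-37595499, minus strand: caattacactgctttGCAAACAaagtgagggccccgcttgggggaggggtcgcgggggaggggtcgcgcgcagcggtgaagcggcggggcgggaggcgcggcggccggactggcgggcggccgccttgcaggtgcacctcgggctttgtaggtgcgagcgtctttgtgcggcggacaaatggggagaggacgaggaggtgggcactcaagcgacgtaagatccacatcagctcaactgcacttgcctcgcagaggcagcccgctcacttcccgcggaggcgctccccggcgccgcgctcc
CEBPA, chr19:33302485-33302784, minus strand: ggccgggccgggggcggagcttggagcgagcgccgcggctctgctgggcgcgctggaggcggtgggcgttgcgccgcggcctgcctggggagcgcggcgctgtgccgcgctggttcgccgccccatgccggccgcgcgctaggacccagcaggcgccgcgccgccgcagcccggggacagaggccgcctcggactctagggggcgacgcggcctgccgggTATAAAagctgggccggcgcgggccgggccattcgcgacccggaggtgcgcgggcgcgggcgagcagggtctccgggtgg
HNF4A upstream start, chr20:44355449-44355748, plus strand: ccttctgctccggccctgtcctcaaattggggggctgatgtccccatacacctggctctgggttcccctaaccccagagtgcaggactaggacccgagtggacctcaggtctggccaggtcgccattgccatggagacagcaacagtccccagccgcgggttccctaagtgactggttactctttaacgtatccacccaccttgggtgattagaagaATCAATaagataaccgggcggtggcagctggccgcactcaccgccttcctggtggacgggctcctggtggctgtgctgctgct
HNF4A downstream start, chr20:44400989-44401288, plus strand: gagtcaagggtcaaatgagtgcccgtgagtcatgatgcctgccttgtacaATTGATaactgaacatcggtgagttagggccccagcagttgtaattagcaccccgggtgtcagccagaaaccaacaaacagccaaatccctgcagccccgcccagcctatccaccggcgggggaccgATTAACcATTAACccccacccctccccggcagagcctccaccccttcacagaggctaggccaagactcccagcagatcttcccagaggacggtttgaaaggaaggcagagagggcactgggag

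The motifs searched on both strands were a forkhead motif (TGTTTNC), a CEBP motif (TTGCNNAA), an HNF4 motif (CAAAGTCC), a core of ONECUT sites (ATCAAT), an HNF1 motif (GTTAAT) and the TATA box (TATAAA). The FOXA1 window held a forkhead match that began at position -235 from the start site, a motif found in 18% of 35116 RefSeq promoters of the same length. In the CEBPA window the match was a TATA box at -30, and the FOXA3 window, not printed, held one at the same distance; 11.5% of promoters held this motif. The upstream HNF4A window held an ONECUT core at -33, against a share of 6.26% of promoters. The downstream HNF4A window held an ONECUT core at -200 and HNF1 motifs at -73 and -66, and 6.88% of promoters held an HNF1 motif. No window matched the CEBP motif (10.5% of promoters) or the HNF4 motif (1.2%), and the ONECUT1 window matched none of the 6. GC content was 69.3% for FOXA1, 80.7% for CEBPA and 60% and 57.7% for the upstream and downstream HNF4A windows, against a median of 58.7% over all promoters. HNF4G, FOXA2 and PROX1 are named without a sequence.

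Corrected for exon length, CEBPA had the highest level of the 8 genes in both lines, at 121 ± 11.9 CPM per kb in Hep3B and 122 ± 34.1 CPM per kb in Huh7 (SD over the 4 treatments). HNF4A came next, at 46.9 ± 4.82 CPM per kb in Hep3B and 50.6 ± 4.31 CPM per kb in Huh7. The annotation used for its exon length ends the gene at 44434596, past the deposited end at 44432845. The HNF4A level per kb may thus be understated. FOXA3 followed, at 30.1 ± 2.98 CPM per kb in Hep3B and 43.5 ± 1.36 CPM per kb in Huh7. The lowest levels belonged to ONECUT1, at 7.48 CPM per kb in Hep3B and 5.73 CPM per kb in Huh7, and HNF4G, at 3.72 CPM per kb in Hep3B and 4.93 CPM per kb in Huh7. In Hep3B the middle of the order was FOXA1 (24.2 CPM per kb), PROX1 (23.0) and FOXA2 (18.7), and in Huh7 it was FOXA2 (27.6), FOXA1 (16.7) and PROX1 (13.9). Neighbours in the order whose ranges over the treatments overlapped were FOXA3 and FOXA1, FOXA1 and PROX1, and PROX1 and FOXA2 in Hep3B, and FOXA1 and PROX1, and ONECUT1 and HNF4G in Huh7. With the length of the longest transcript in place of all exons, an alternative added after the data had been seen, FOXA1 (33.7 CPM per kb) stood above FOXA3 (33.2 CPM per kb) in Hep3B.

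**Figure D1:**
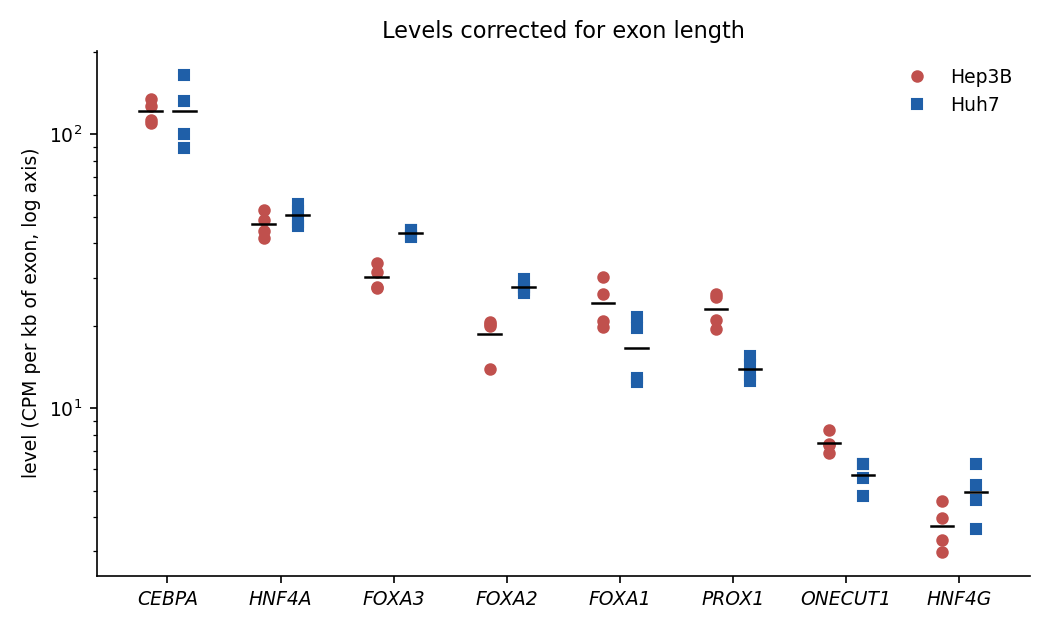
Level of each gene in CPM per kb of exon on a log axis, with 1 point per library, Hep3B as circles left of Huh7 as squares, and a bar at the mean of the 4 libraries of a line. CEBPA, at means of 121 and 122 CPM per kb, lies above the other 7 genes in both lines.

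FOXA1, a forkhead factor that opens chromatin at liver enhancers, was the only one of the 8 genes called for sertraline against control in the fit over both lines. In Hep3B its level was 83.0 CPM with both drugs, 104 CPM with XL413, 79.1 CPM with sertraline and 119.9 CPM in the control. In Huh7 the levels were 51.4 CPM with both drugs, 78.4 CPM with XL413, 49.8 CPM with sertraline and 85.6 CPM in the control. In each line both libraries given sertraline lay below both libraries without it. FOXA1 fell with sertraline against control by 0.69 ± 0.12 on the log2 scale (SE; 0.620-fold; lower in 2 of 2 lines; edgeR adjusted p = 0.0199).

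In cells pretreated with XL413 the difference in FOXA1 was -0.46 ± 0.12, with an edgeR adjusted p of 0.121. With both drugs against control it fell by 0.63 ± 0.12 (adjusted p = 0.0233, edgeR). The 2 sertraline effects did not differ past the threshold (interaction of 0.22 ± 0.17, adjusted p = 1, edgeR). The call against control rests on every library in it: without any 1 of the 4 control and sertraline libraries the difference was -0.76 to -0.62 and the adjusted p 0.0682 to 0.100. For both drugs against control, the adjusted p was 0.0663 to 0.209 without any 1 of the 4 libraries compared.

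Of all 16972 genes, 4.9% were called for sertraline against control (2.96% higher and 1.94% lower), and 1 of the 8 transcription factor genes was. With both drugs against control 9.22% of genes (4.84% higher and 4.37% lower) and again 1 of the 8 genes were called; the split was 822 higher and 742 lower genes with TMM, and 1214 higher and 375 lower with total count scaling. In pretreated cells (both drugs against XL413) 0.937% of genes (0.666% higher and 0.271% lower) and 0 of the 8 were called by edgeR; 1 of them, FOXA1, had an unadjusted p under 0.05, DESeq2 called FOXA1, and limma voom called 0. The median log2 fold change with sertraline against control was 0.11 over the 8 genes and 0.01 over all genes tested.

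**Figure D2:**
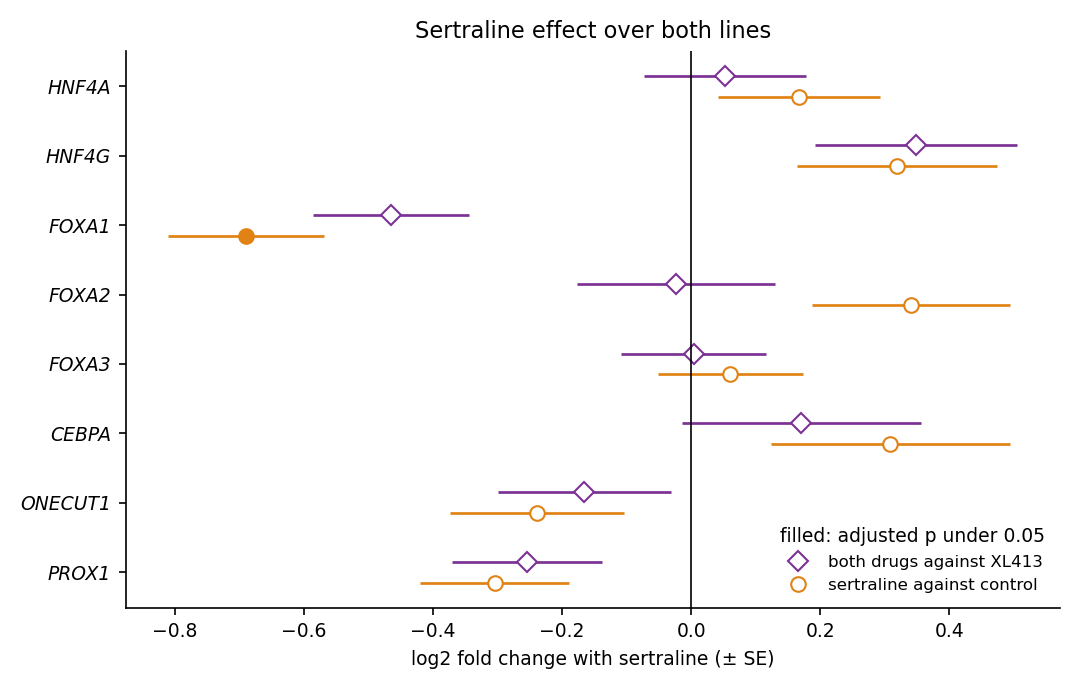
Log2 fold change with sertraline for each gene over both lines, in pretreated cells (both drugs against XL413, diamonds) and in cells without XL413 (sertraline against control, circles), with SE bars and filled symbols where the adjusted p was under 0.05. The single filled symbol is FOXA1 at -0.69.

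Fitted inside each line, an analysis added after the data had been seen, FOXA1 fell by 0.46 ± 0.10 with sertraline in Hep3B (adjusted p = 0.00189, edgeR) and fell by 0.70 ± 0.10 in Huh7 (adjusted p = 2.44e-05, edgeR). These fits set the 2 libraries with sertraline against the 2 without it in a line, and their error comes from departures of the drug effects from additivity. With a library of a line left out, the drug effect of that line is the difference of a single pair of libraries. The error then comes from the other line alone. Without the Hep3B control or the Hep3B sertraline library, that pair was both drugs against XL413. The Hep3B call was then lost, at -0.30 and -0.32. With a library left out the Hep3B difference was -0.60 to -0.30. The difference between the lines in this effect was 0.23 ± 0.14 (Hep3B minus Huh7; adjusted p = 0.409, edgeR). TTC6, a gene that overlaps FOXA1 on the opposite strand, had 6.02 to 8.37 CPM in Hep3B and 3.55 to 9.65 CPM in Huh7, and its sertraline difference was -0.63 (adjusted p = 0.225, edgeR). The sources used here do not give the strand setting of the counting.

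Some markers of other cell types were called with sertraline too, beside 14.3% of all genes higher and 13.6% lower inside Huh7. The shares over all genes inside Hep3B were 11.8% higher and 12.3% lower. Inside Huh7, where FOXA1 fell, edgeR called 1 of 9 bile duct markers higher and 4 lower (median of -0.45), 0 of 6 stellate and fibroblast markers higher and 3 lower (median of -0.73), and 0 higher and 1 lower among 4 endothelial, 2 immune and 5 intestinal epithelium markers each. Inside Hep3B it called 1 bile duct marker higher and 2 lower (median of -0.32), 1 stellate and fibroblast marker higher and 1 lower, 0 immune or intestinal epithelium markers higher and 1 of each lower, and 0 endothelial markers in either direction. Of 13 hepatocyte markers 2 were higher and 1 lower inside Hep3B, and 2 higher and 2 lower inside Huh7. Bile duct markers summed to 691 to 805 CPM with sertraline and 816 to 933 CPM without it in Hep3B, and to 388 to 488 CPM with it and 454 to 665 CPM without it in Huh7. Intestinal epithelium markers summed to 360.0 to 382 CPM with sertraline and 487 to 503 CPM without it in Hep3B, and to 415 to 428 CPM with it and 604 to 757 CPM without it in Huh7. Most of this sum was VIL1, at 470 CPM in the Hep3B control and 336 CPM with sertraline, and at 506 and 292 CPM in Huh7. In the same Huh7 libraries CDH17 went from 48.5 to 65.2 CPM and CDX2 from 30.5 to 40.6 CPM, while SI went from 17.9 to 15.7 CPM. Stellate and fibroblast markers summed to 26.3 to 48.4 CPM with sertraline and 28.6 to 39.3 CPM without it in Hep3B, and to 56.1 to 136 CPM with it and 137 to 247 CPM without it in Huh7. Their part in the FOXA1 result was not tested.

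FOXA2 and FOXA3, which bind the same kind of site, were not called for sertraline in the fit over both lines. In Hep3B FOXA2 had 52.8 CPM with both drugs, 51.8 CPM with XL413, 53.8 CPM with sertraline and 36.1 CPM in the control. In Huh7 it had 68.3 CPM with both drugs, 72.3 CPM with XL413, 76.8 CPM with sertraline and 70.1 CPM in the control. The Hep3B control thus lay below the other 7 libraries, while the 4 Huh7 libraries were close together. FOXA2 had a log2 difference of 0.34 ± 0.15 with sertraline against control and -0.02 ± 0.15 with both drugs against XL413 (adjusted p = 0.240 and 0.963, edgeR). The difference against control was 0.11 without the Hep3B control and 0.61 without the Huh7 control. FOXA3 lay between 60.4 and 74.1 CPM in Hep3B and between 92.8 and 98.3 CPM in Huh7, with a difference of 0.06 ± 0.11 with sertraline (adjusted p = 0.798, edgeR).

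Inside Hep3B the FOXA2 difference was 0.30 ± 0.12 with sertraline (adjusted p = 0.0680, edgeR) and 0.24 ± 0.12 with XL413 (adjusted p = 0.175, edgeR). Both values depended on which pair of Hep3B libraries was compared. Without the XL413 library or the library given both drugs, the sertraline difference was that of sertraline against control, at 0.58. For both drugs against XL413 it was 0.026 without the sertraline library and 0.042 without the control. Without the sertraline library or the library given both drugs, the XL413 difference was that of XL413 against control, at 0.52. For both drugs against sertraline it was -0.030 without the XL413 library and -0.011 without the control. These fits hold no spread of Hep3B. With total count scaling the XL413 difference was 0.36 and called (adjusted p = 0.0432, edgeR). Inside Huh7 FOXA2 differed by 0.03 ± 0.11 with sertraline and by -0.06 ± 0.11 with XL413 (adjusted p = 0.902 and 0.750, edgeR).

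As a share of the summed level per kb of the 3 FOXA genes, FOXA1 in Hep3B made up 30.2% with both drugs, 35.4% with XL413, 26.7% with sertraline and 40.0% in the control. In Huh7 it made up 15.8% with both drugs, 21.9% with XL413, 14.4% with sertraline and 23.1% in the control. The share was lower with sertraline in each of the 4 pairs of libraries that differ by this drug alone. The summed level was 68.9 to 75.3 CPM per kb in Hep3B and 81.5 to 93.0 CPM per kb in Huh7. These shares are descriptions and have no test.

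**Figure D3:**
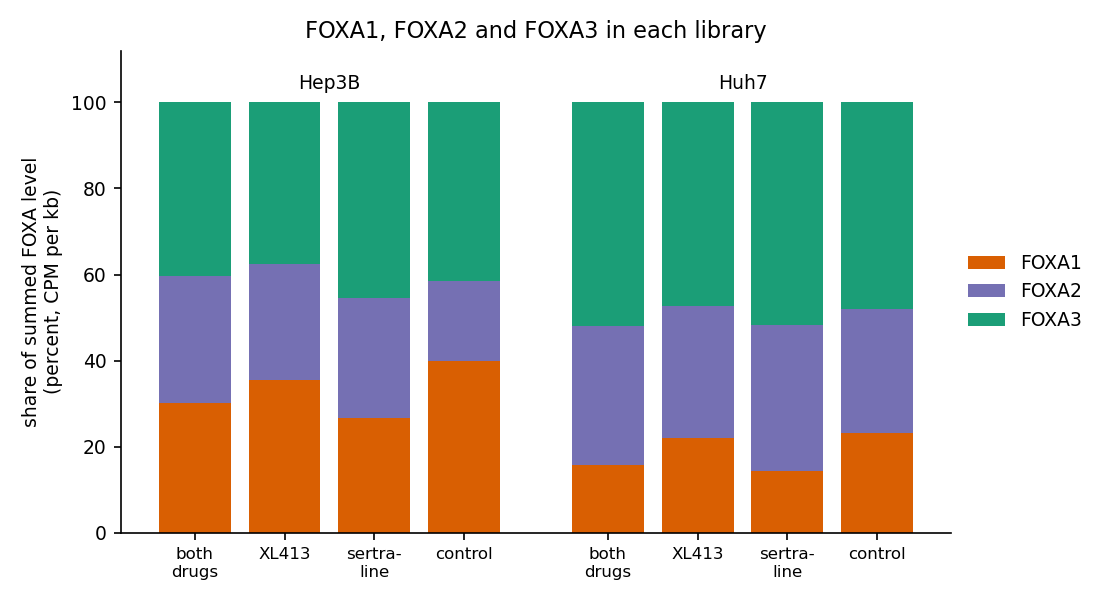
Share of FOXA1, FOXA2 and FOXA3 in their summed level (percent of CPM per kb), stacked for each of the 8 libraries, Hep3B on the left and Huh7 on the right. FOXA1 makes up 26.7% to 40.0% in Hep3B and 14.4% to 23.1% in Huh7, with the lowest share in the sertraline library of each line.

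CEBPA, a leucine zipper factor that holds back division and drives metabolic genes of the hepatocyte, was the 1 gene of the 8 called for a difference between the lines in the response to XL413. In Hep3B it had 334 CPM with both drugs, 297 CPM with XL413, 355 CPM with sertraline and 289.5 CPM in the control. In Huh7 it had 265 CPM with both drugs, 235 CPM with XL413, 435 CPM with sertraline and 348 CPM in the control. The Huh7 libraries with XL413 lay below those without it, while in Hep3B the ranges overlapped. The XL413 effect differed by 0.61 ± 0.14 on the log2 scale (Hep3B minus Huh7; adjusted p = 0.00806, edgeR).

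Inside the lines, XL413 gave a CEBPA difference of -0.03 ± 0.10 in Hep3B (adjusted p = 0.901, edgeR), and in Huh7 it fell by 0.64 ± 0.10 (adjusted p = 0.000119, edgeR). The difference between lines was no longer called, at 0.54, without the Huh7 sertraline library or without the Huh7 library given both drugs. FOXA2 had a difference between lines of 0.30 ± 0.16 (adjusted p = 0.292, edgeR). It was 0.59 without the Hep3B sertraline library or the Hep3B library given both drugs. It was 0.038 without the Hep3B XL413 library and 0.057 without the Hep3B control. Each of these fits takes the effect of the line that lost a library from a single pair of libraries. For this comparison 8.9% of all genes were called (3.94% with a higher and 4.96% with a lower value in Hep3B), and 1 of the 8 genes. CEBPA-AS1, a noncoding gene within 5 kb, had 6.12 to 7.88 CPM in Hep3B and 6.24 to 8.20 CPM in Huh7. Over both lines, CEBPA differed by -0.26 ± 0.19 with XL413 against control (adjusted p = 0.631, edgeR) and by 0.31 ± 0.19 with sertraline against control (adjusted p = 0.373, edgeR). With a library left out these differences were -0.48 to -0.067 with XL413, lowest in size without the Huh7 XL413 library, and 0.080 to 0.52 with sertraline, lowest without the Huh7 sertraline library.

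Some markers of other cell types were called with XL413 inside Huh7 too. With XL413 there, edgeR called 6 of 9 bile duct markers higher and 0 lower (median of 0.82), 3 of 4 endothelial markers higher and 1 lower (median of 1.51), and 3 of 6 stellate and fibroblast markers higher and 1 lower (median of 0.83). Endothelial levels were low: LYVE1 went from 0.153 CPM in the Huh7 control to 1.93 CPM with XL413, and VWF from 0.0765 to 0.772 CPM. In the same libraries CDH5 went from 0.344 to 0.947 CPM and PECAM1 from 6.20 to 3.65 CPM. Of 2 immune markers 1 was higher and 0 lower, of 5 intestinal epithelium markers 1 was higher and 2 lower, and of 7 fetal liver markers 0 were higher and 3 lower. Of 13 hepatocyte markers 0 were higher and 6 lower (median of -0.33), beside 11.6% of all genes higher and 8.99% lower. In the Huh7 libraries with XL413 the summed level of bile duct markers was 488 to 665 CPM, against 388 to 454 CPM in those without it. Stellate and fibroblast markers summed to 136 to 247 CPM with XL413 and 56.1 to 137 CPM without it, endothelial markers to 5.09 to 7.33 CPM and 5.05 to 6.77 CPM, and hepatocyte markers to 23652 to 24896 CPM and 26626 to 32792 CPM. In Hep3B, where the CEBPA difference with XL413 was -0.03, hepatocyte markers summed to 32030 to 32656 CPM with XL413 and 45753 to 49887 CPM without it. Bile duct markers there summed to 805 to 933 CPM with it and 691 to 816 CPM without it. Stellate and fibroblast markers went the other way than in Huh7, at 26.3 to 28.6 CPM with it and 39.3 to 48.4 CPM without it. Among the measured markers of these 7 lists, 1 immune marker was at 0 in all Huh7 libraries, and the part of the markers in the CEBPA result was not tested.

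**Figure D4:**
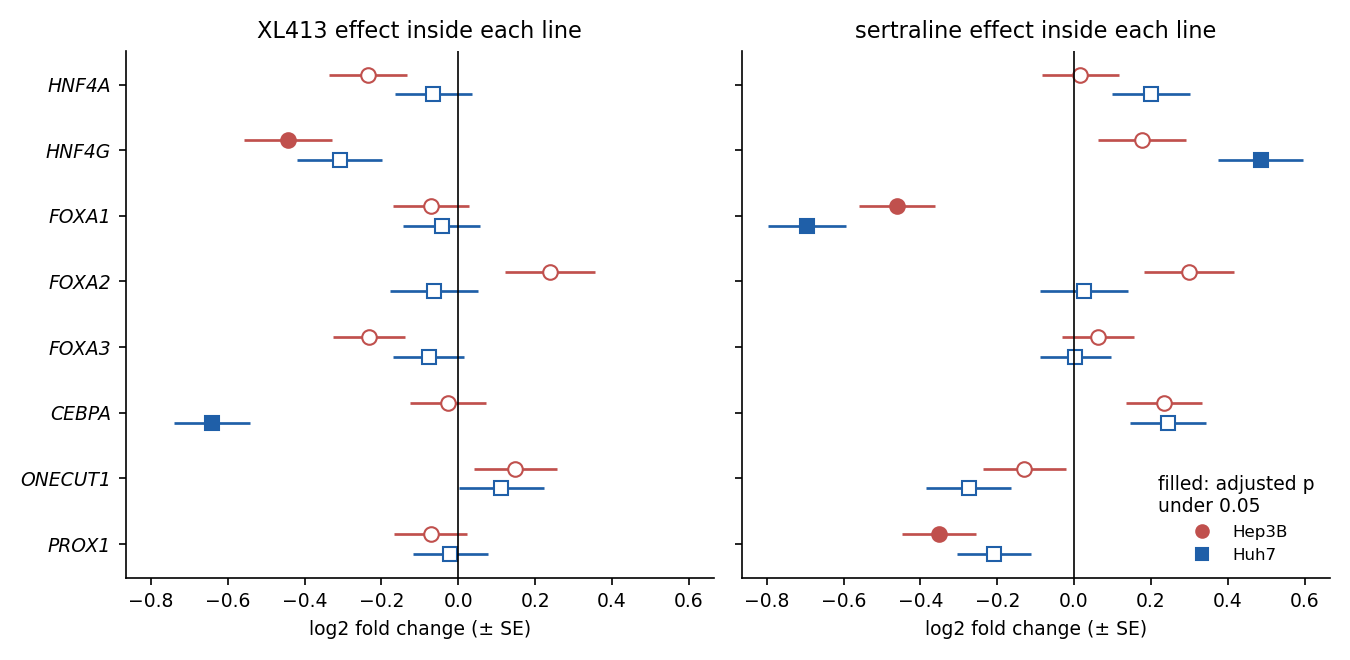
Log2 fold change with XL413 (left) and with sertraline (right) inside Hep3B (circles, upper symbol) and Huh7 (squares, lower symbol) for each gene, with SE bars and filled symbols where the adjusted p was under 0.05. CEBPA with XL413 is at -0.03 in Hep3B and -0.64 in Huh7, and FOXA1 with sertraline is at -0.46 in Hep3B and -0.70 in Huh7.

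HNF4A, a nuclear receptor that maintains the mature hepatocyte, was not called in any of the 9 comparisons of treatments and lines. In Hep3B it had 306 CPM with both drugs, 324 CPM with XL413, 386 CPM with sertraline and 356 CPM in the control. In Huh7 it had 384 CPM with both drugs, 339 CPM with XL413, 407 CPM with sertraline and 349 CPM in the control. In both lines the sertraline library was the highest, and the ranges of the lines overlapped. The difference was 0.17 ± 0.13 with sertraline against control (adjusted p = 0.486, edgeR) and -0.09 ± 0.13 with XL413 against control (adjusted p = 0.819, edgeR). HNF4A-AS1, which overlaps it on the opposite strand, had 0.245 to 0.895 CPM in Hep3B. In Huh7 HNF4A-AS1 had 0.727 CPM with both drugs, 0.316 CPM with XL413, 2.34 CPM with sertraline and 0.459 CPM in the control. Inside Huh7 HNF4A-AS1 rose by 1.91 ± 0.40 with sertraline (adjusted p = 0.00124, edgeR) and fell by 1.37 ± 0.39 with XL413 (adjusted p = 0.0158, edgeR), at no more than 64 reads in a library. Both values lean on the Huh7 sertraline library, which stood apart from the other Huh7 libraries. Leaving out single libraries was not examined for HNF4A-AS1. The sertraline effect on HNF4A-AS1 differed between the lines by -2.84 ± 0.59 (Hep3B minus Huh7; adjusted p = 0.00843, edgeR), while over both lines its sertraline difference of 1.07 was not called (adjusted p = 0.444, edgeR).

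HNF4G, a close relative of HNF4A with the lowest level of the 8 genes, had 15.9 CPM with both drugs, 14.4 CPM with XL413, 22.0 CPM with sertraline and 19.1 CPM in the control in Hep3B. In Huh7 it had 25.1 CPM with both drugs, 17.3 CPM with XL413, 30.1 CPM with sertraline and 22.2 CPM in the control. In each line the XL413 library was the lowest and the sertraline library the highest. Over both lines the difference was 0.32 ± 0.15 with sertraline against control (adjusted p = 0.273, edgeR) and -0.39 ± 0.16 with XL413 against control (adjusted p = 0.435, edgeR). Inside the lines, HNF4G rose with sertraline in Huh7 by 0.49 ± 0.11 (adjusted p = 0.0023, edgeR) and fell with XL413 in Hep3B by 0.44 ± 0.11 (adjusted p = 0.0111, edgeR). In the other line of each drug the difference was 0.18 ± 0.11 with sertraline in Hep3B (adjusted p = 0.287, edgeR) and -0.31 ± 0.11 with XL413 in Huh7 (adjusted p = 0.0528, edgeR). The XL413 difference in Huh7 was called in 5 of 13 alternatives, over adjusted p-values of 0.0138 to 0.393. Neither effect was called as different between the lines (Hep3B minus Huh7, -0.31 for sertraline and -0.13 for XL413; adjusted p = 0.320 and 0.687, edgeR). The rise in Huh7 was not called, at 0.44, without the Huh7 XL413 library or the Huh7 library given both drugs. The fall in Hep3B was not called by DESeq2 (adjusted p = 0.0645) or by total count scaling (adjusted p = 0.0702). Nor was it called, at -0.42, without the Hep3B sertraline library or the Hep3B library given both drugs. Each of these values with a library left out rests on a single pair of libraries. With XL413 inside Hep3B, 8.84% of all genes were called higher and 8.21% lower. Of 9 bile duct markers 3 were higher and 1 lower there, and of 6 stellate and fibroblast markers 0 were higher and 2 lower. Of 5 intestinal epithelium markers 0 were higher and 2 lower, and of 13 hepatocyte markers 1 was higher and 9 lower. The part of these markers in the HNF4G result was not tested.

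PROX1, a homeodomain factor of the fetal and adult hepatocyte, had 174 CPM with both drugs, 228 CPM with XL413, 188 CPM with sertraline and 233 CPM in the control in Hep3B. In Huh7 it had 118 CPM with both drugs, 128 CPM with XL413, 113 CPM with sertraline and 138 CPM in the control. In each line both libraries given sertraline lay below both without it. The difference with sertraline against control was -0.30 ± 0.12 (adjusted p = 0.171, edgeR). Inside Hep3B it fell with sertraline by 0.35 ± 0.10 (adjusted p = 0.0106, edgeR). The call was lost at -0.38 without the Hep3B control, and at -0.31 without the Hep3B XL413 library or the Hep3B library given both drugs. Each of these values rests on a single pair of libraries. The difference was -0.39 to -0.31 with a library left out. Inside Huh7 the difference was -0.21 ± 0.10 (adjusted p = 0.119, edgeR).

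ONECUT1, a cut-homeodomain factor also known as HNF6, had 28.6 CPM with both drugs, 32.0 CPM with XL413, 26.4 CPM with sertraline and 28.2 CPM in the control in Hep3B. In Huh7 it had 21.5 CPM with both drugs, 24.2 CPM with XL413, 18.4 CPM with sertraline and 24.1 CPM in the control. The sertraline library was the lowest of each line. The difference with sertraline against control was -0.24 ± 0.13 (adjusted p = 0.343, edgeR), and no comparison of treatments called it.

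**Figure D5:**
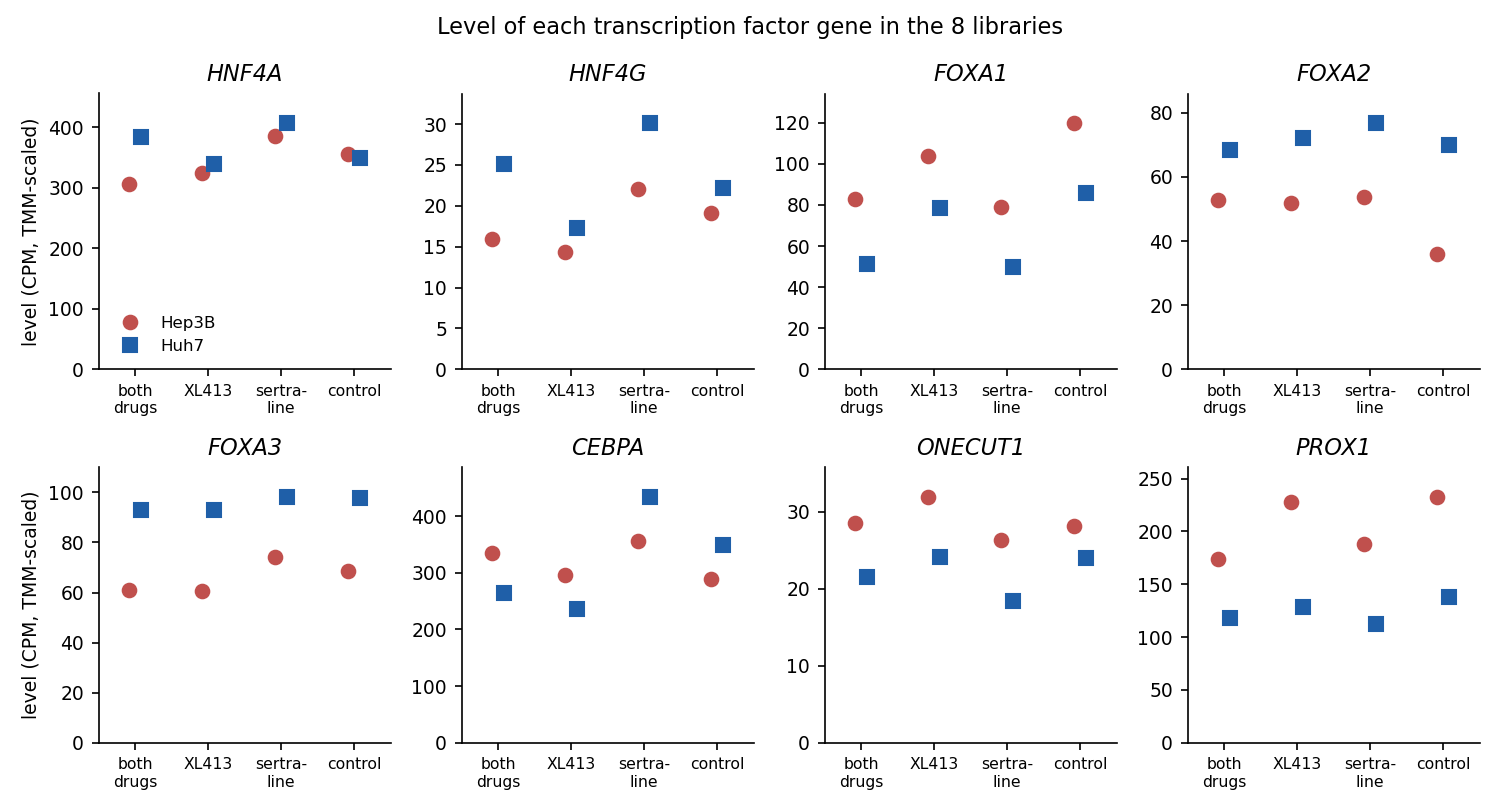
Level of each gene (CPM, TMM-scaled, axis from 0) in the 8 libraries by treatment, Hep3B as circles and Huh7 as squares, with 1 library per point. FOXA1 is at 49.8 to 83.0 CPM in the 4 libraries given sertraline and at 78.4 to 119.9 CPM in the 4 without it, and CEBPA in Huh7 is at 235 and 265 CPM with XL413 against 348 and 435 CPM without it.

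Inside Hep3B, sertraline called 24.1% of all genes (11.8% higher and 12.3% lower) and 2 of the 8 (FOXA1 and PROX1), and inside Huh7 27.9% of all genes (14.3% higher and 13.6% lower) and 2 of the 8 (FOXA1 and HNF4G). XL413 called 17.1% of all genes (8.84% higher and 8.21% lower) and 1 of the 8 inside Hep3B (HNF4G), and 20.5% of all genes (11.6% higher and 8.99% lower) and 1 of the 8 inside Huh7 (CEBPA). The shares among the 8 genes are near those of all genes. These counts moved with single libraries. Sertraline called 1456 to 4760 genes and 0 to 2 of the 8 inside Hep3B with a library left out, against 4083 and 2, and 1852 to 5952 genes and 1 to 4 of the 8 inside Huh7, against 4730 and 2. XL413 called 2294 to 2450 genes and 1 of the 8 inside Hep3B, against 2894 and 1, and 870 to 4919 genes and 1 to 2 of the 8 inside Huh7, against 3487 and 1. The lowest counts inside Huh7 came without the Huh7 library given both drugs, and the lowest for sertraline inside Hep3B without the Hep3B control. The genes added for sertraline inside Huh7 were CEBPA (0.24 ± 0.10, adjusted p = 0.0749, edgeR) and ONECUT1 (-0.27 ± 0.11, adjusted p = 0.0732, edgeR), each called without the Hep3B sertraline library, the Hep3B XL413 library or the Hep3B library given both drugs. With total count scaling the XL413 calls split into 2470 higher and 689 lower genes inside Hep3B, against 1501 and 1393 with TMM, and into 2542 higher and 691 lower inside Huh7, against 1961 and 1526 with TMM.

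For XL413 against control edgeR called 0% of all 16972 genes and 0 of the 8, of which 1, HNF4G, had an unadjusted p under 0.05; DESeq2 and limma voom also called 0 of the 8. For both drugs against sertraline the share was again 0% of all genes and 0 of the 8 genes, with 1 (HNF4G) at an unadjusted p under 0.05 and 0 called by DESeq2 or limma voom. The interaction of the drugs called 0% of all genes and 0 of the 8, with 0 at an unadjusted p under 0.05 and 0 called by DESeq2 or limma voom. For the difference between lines in the sertraline effect, 4.34% of all genes were called (2.57% higher and 1.77% lower) and 0 of the 8, with 0 at an unadjusted p under 0.05 and 0 called by DESeq2 or limma voom. The differences in this last comparison ran from -0.31 to 0.27.

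Between the lines, 6 of the 8 genes differed, 3 higher and 3 lower in Hep3B, a share close to the 62.7% of all genes called (31.4% higher and 31.4% lower). The p-values for the lines measure how constant each gap was over the treatments, and speak of these libraries only. In Hep3B against Huh7, PROX1 was higher by 0.72 ± 0.08 (adjusted p = 0.000108), FOXA1 by 0.56 ± 0.09 (adjusted p = 0.000548) and ONECUT1 by 0.39 ± 0.10 (adjusted p = 0.00691), all edgeR. FOXA2 was lower, with a log2 difference of -0.58 ± 0.11 (adjusted p = 0.00175, edgeR), as were FOXA3 at -0.54 ± 0.08 (adjusted p = 0.000483, edgeR) and HNF4G at -0.40 ± 0.11 (adjusted p = 0.0124, edgeR). The ranges of the lines did not overlap for PROX1, ONECUT1, FOXA2 and FOXA3, while those of FOXA1 and HNF4G did. HNF4A (-0.11 ± 0.09, adjusted p = 0.304, edgeR) and CEBPA (0.03 ± 0.13, adjusted p = 0.862, edgeR) were not called. The HNF4G call was lost without the Huh7 library given both drugs (adjusted p = 0.0613) and without its Hep3B counterpart (adjusted p = 0.062).

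LINC00261, a noncoding gene within 5 kb of FOXA2, was lower in Hep3B too, at 137 to 221 CPM in Hep3B and 229 to 299 CPM in Huh7 (log2 difference of -0.59 ± 0.16, adjusted p = 0.0103, edgeR). Markers of other cell types differed between the lines in both directions, beside the 62.7% of all genes called. In Hep3B against Huh7, 4 of 9 bile duct markers were higher and 1 lower, 0 of 4 endothelial markers were higher and 4 lower, 2 of 6 stellate and fibroblast markers were higher and 4 lower, and 0 of 5 intestinal epithelium markers were higher and 4 lower. Of 2 tested immune markers 1 was higher and 1 lower, of 7 fetal liver markers 1 was higher and 3 lower, and of 13 hepatocyte markers 4 were higher and 5 lower. Bile duct markers summed to 691 to 933 CPM in Hep3B and 388 to 665 CPM in Huh7, and endothelial markers to 0.736 to 1.35 CPM in Hep3B and 5.05 to 7.33 CPM in Huh7. Stellate and fibroblast markers summed to 26.3 to 48.4 CPM in Hep3B and 56.1 to 247 CPM in Huh7, and immune markers to 45.5 to 137 CPM in Hep3B and 298 to 483 CPM in Huh7. Fetal liver markers summed to 7776 to 10202 CPM in Hep3B and 20832 to 28696 CPM in Huh7, and those of intestinal epithelium to 360.0 to 503 CPM in Hep3B and 415 to 757 CPM in Huh7. Most of the fetal sum in Huh7 was AFP, at 720 to 1256 CPM in Hep3B and 15591 to 22801 CPM in Huh7. H19 of the same list went the other way, at 3428 to 4592 CPM in Hep3B and 1.34 to 1.68 CPM in Huh7. Their part in the line differences was not tested.

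Among 13 relatives of these factors that passed the filter on low counts, 4 rose with sertraline against control and 0 fell, beside the 4.9% of all genes called. They were DDIT3, a stress-induced member of the CEBP family (1.61 ± 0.13, adjusted p = 0.00279, edgeR), CEBPB (1.17 ± 0.17, adjusted p = 0.0107, edgeR), CEBPG (0.66 ± 0.12, adjusted p = 0.0219, edgeR) and the forkhead factor FOXO3 (0.76 ± 0.14, adjusted p = 0.0263, edgeR). CEBPB had 28.3 CPM with sertraline in Hep3B against 11.3 CPM in its control, and 33.9 CPM with sertraline in Huh7 against 16.8 CPM in its control. The median over these 13 genes was 0.26, against 0.01 over all genes. Among 39 other liver-enriched transcription factors 4 rose and 0 fell: BHLHE40, a clock-linked repressor (1.86 ± 0.28), PPARA, a receptor for fatty acids (1.05 ± 0.18), MLXIPL, which responds to glucose (1.69 ± 0.35), and CREB3L3 (0.59 ± 0.13). Of 22 coregulators 1 rose, PPARGC1A, a partner of HNF4A in fasting (1.97 ± 0.41, adjusted p = 0.0343, edgeR).

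Of 44 genes known as HNF4A targets, 38 passed the filter on low counts. Of these 38, 5 rose and 1 fell with sertraline against control, beside 2.96% of all genes higher and 1.94% lower. HPN, a surface protease, rose by 1.51 ± 0.19 (adjusted p = 0.00769, edgeR), and the clotting factor F7 by 0.77 ± 0.13 (adjusted p = 0.02, edgeR). CYP27A1, a sterol hydroxylase, rose by 0.86 ± 0.15 (adjusted p = 0.0206, edgeR). The median of the 38 genes was 0.37. With both drugs against control 4 were higher and 3 lower (median of 0.06), beside 4.84% and 4.37% of all genes, and with both drugs against XL413 0 were higher and 1 lower (median of 0.15), beside 0.666% and 0.271%.

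With sertraline against control, of 13 FOXA targets 2 rose (IGFBP1 and the iron carrier TF) and 0 fell, of 13 CEBPA targets 1 rose (TF) and 0 fell, and of 9 targets of ONECUT1 and PROX1 1 rose (CDH1, the epithelial cadherin, by 0.65 ± 0.14) and 0 fell, against the same 2.96% and 1.94% of all genes. With both drugs against control 0 FOXA targets were higher and 2 lower, 0 CEBPA targets higher and 2 lower, and 1 target of ONECUT1 and PROX1 higher and 0 lower. With both drugs against XL413 each of these 3 lists had 0 higher and 0 lower. The lists share genes. IGFBP1, which binds insulin-like growth factors, had 135 CPM with sertraline in Hep3B against 7.62 CPM in its control, and 1.10 CPM with sertraline in Huh7 against 0.0765 CPM in its control. For XL413 against control 0% of all genes were called, so the 0 called genes of each list say nothing about the lists.

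Inside the lines more HNF4A and FOXA targets were lower than higher with XL413. Of the 38 HNF4A targets 2 were higher and 13 lower inside Hep3B (median of -0.30), beside 8.84% and 8.21% of all genes, and 2 were higher and 13 lower inside Huh7 (median of -0.15), beside 11.6% and 8.99%. Of the 13 FOXA targets 1 was higher and 7 lower inside Hep3B, and 0 were higher and 6 lower inside Huh7. Of the 13 CEBPA targets 2 were higher and 3 lower inside each line, and of the 9 targets of ONECUT1 and PROX1 4 were higher and 0 lower inside Hep3B and 3 higher and 0 lower inside Huh7. Hepatocyte markers, which share genes with these lists, had 1 higher and 9 lower of 13 inside Hep3B. With sertraline 8 HNF4A targets were higher and 3 lower inside Hep3B, beside 11.8% and 12.3% of all genes, and 12 were higher and 3 lower inside Huh7, beside 14.3% and 13.6%.

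In Hep3B against Huh7, 7 of the 13 relatives were higher and 4 lower, with FOXQ1 at 2.40 ± 0.25 and ONECUT2, a paralog of ONECUT1, at -1.10 ± 0.13. Of the 39 other liver-enriched factors 16 were higher and 16 lower, among them ESRRG, an orphan nuclear receptor (3.72 ± 0.25), and NR1I2, the xenobiotic receptor (-5.96 ± 0.28). Of the 38 HNF4A targets 13 were higher and 16 lower, with APOA2, an apolipoprotein, at 1.62 ± 0.11 and the clotting factor F12 at -3.44 ± 0.16. For each of these lists the background is the 62.7% of all genes called.

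Across the 8 libraries, after the mean of each line was subtracted, HNF4A and HNF4G varied together (Pearson r = 0.91), as did FOXA1 and PROX1 (r = 0.86), while HNF4G and ONECUT1 ran in opposite directions (r = -0.90). The genes whose pattern was most like that of FOXA1 among 9614 candidates were WWC2, OIP5 and QRICH1 (r of 0.99 each), and for CEBPA they were COL26A1, FAM101B and SPIDR (0.99 each). For HNF4A they were MTMR10, PSD4 and PSMG2 (0.98, 0.98 and 0.97), for HNF4G GIGYF2, KIAA1958 and COA5 (0.99 each), for FOXA2 UBXN6, PRKCSH and ZNF444 (0.99, 0.98 and 0.98) and for FOXA3 FST, CIDEB and SURF4 (0.99, 0.98 and 0.98). For ONECUT1 RP2 and CDK11B were among them (0.98 each), and for PROX1 they were GTF2H2C, GFM2 and SGOL1 (0.98, 0.97 and 0.97). These are descriptions over 8 libraries that share their lines and treatments, and the highest of 9614 values.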

How the data were processed

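RNA of 8 poly(A) libraries was measured as read counts per Ensembl gene, which the authors deposited as whole numbers with no normalization. Alignment and counting used HISAT2 and HTSeq with GRCh38 (hg38). These names are as per the submitters' processing notes. Tool versions, annotation release and strand setting are among the details not given in the sources used here. The library preparation was strand-specific, per the labels. The count table held 31710 genes and 0 columns of other samples.

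Counts were analysed in R 4.3.3. filterByExpr on the treatments (minimum count of 10) removed 14738 genes and kept 16972. TMM scaling was applied, and CPM values are computed from the deposited counts with that scaling. Treatments and lines were compared with edgeR 4.0.16 (estimateDisp, glmQLFit, glmQLFTest), with cell line and treatment as terms, on the 8 libraries together (3 residual degrees of freedom). Differences between lines in the drug effects, and effects inside a line, came from a model of line by XL413 plus line by sertraline (2 residual degrees of freedom). P-values were adjusted by the Benjamini-Hochberg method across the 16972 genes, and 0.05 was the threshold. The log2 fold change and the F statistic gave the standard errors. The line is a replicate block, as its 4 libraries share a cell source: after subtraction of treatment means, their correlations were 0.89 to 0.94. The procedure was tested on simulated data.

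The 8 genes and all gene lists were chosen with earlier results of these data known. All 8 genes were described in every comparison. From each list, up to 4 genes with the smallest p for sertraline and up to 4 for the lines could be named, and for each of the 8 genes the 3 genes with the highest Pearson r of log2 CPM (prior count of 2) after subtraction of line means, among tested genes with a mean of at least 10 CPM. Some genes that these rules take are not reported here. Exon lengths come from GENCODE 29, and promoter sequences, matched by symbol for 5 of the 8 genes, from RefSeq on GRCh38.p14. The depth of 20275392 to 30842770 reads bounds the precision for genes with low counts.

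Alternatives were DESeq2 size factors, total count scaling, no low-count filter, the DESeq2 1.42.0 test, limma 3.58.1 voom, no replicate block, an additive model of both drugs, and leaving out each library. Effects inside a line and the longest-transcript length were added after the data had been seen. Figures were drawn with matplotlib 3.10.9.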

Additional observations from a re-analysis of the deposited data

Results flagged for a closer look

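The XL413 effect on CEBPA differed between the lines by 0.61 on the log2 scale (Hep3B minus Huh7; SE 0.14; edgeR adjusted p = 0.00806), by a test of the difference itself. CEBPA had 334 CPM and 297 CPM in the Hep3B libraries given XL413 against 355 CPM and 289.5 CPM in those without it, and 265 CPM and 235 CPM in the Huh7 libraries given XL413 against 435 CPM and 348 CPM in those without it.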

How the results depend on the processing

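FOXA1 kept its direction for sertraline against control in all 15 alternatives, with adjusted p-values of 8.03e-05 to 1. Without the replicate block its difference was -0.67 (adjusted p = 1) and 0 of the 8 genes were called, against 1 with the block; for both drugs against control the count without the block was also 0, against 1 with it. The additive model has a single sertraline effect, which stands for both sertraline against control and both drugs against XL413. It called 3 of the 8 genes for that effect. The DESeq2 test called 1 for both drugs against XL413 (FOXA1, adjusted p = 0.0291, with 0.00207 to 1 over its alternatives) and 2 for both drugs against control, where PROX1 was added (adjusted p = 0.0483, with 0.0483 to 1 over its alternatives). With each library left out in turn, the count was 0 to 1 for sertraline against control, for both drugs against control and for the line difference of the sertraline effect, and 0 to 2 when the XL413 effect was compared between lines. FOXA2 was the gene added for the line difference of the sertraline effect, at 0.55 without the Hep3B XL413 library (adjusted p = 0.0122) and without the Hep3B library given both drugs (adjusted p = 0.0123). FOXA2 was also the gene added when XL413 effects were compared between lines, at 0.59 without the Hep3B sertraline library or the Hep3B library given both drugs. It was at 0.038 without the Hep3B XL413 library and 0.057 without the Hep3B control.

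Counts over all genes moved more: sertraline against control called 831 genes, against 1611 with the DESeq2 test, 1585 with no filter, 3399 in the additive model, 0 without the replicate block, and 89 to 682 with a library left out. Both drugs against XL413 called 159 genes, against 810 with the DESeq2 test, 830 with no filter, 258 with limma voom, 3399 in the additive model, 0 without the block, and 2 to 302 with a library left out. Both drugs against control called 1564 genes, against 2455 with the DESeq2 test, 2505 with no filter, 2651 in the additive model, 0 without the block, and 6 to 1793 with a library left out. XL413 against control called 0 genes, against 203 with the DESeq2 test, 238 with no filter and 1094 in the additive model. Both drugs against sertraline called 0 genes, against 330, 377 and 1094 in the same alternatives. In the additive model the 3399 genes are a single test given under both comparisons, as are the 1094 genes. The line difference of the sertraline effect called 737 genes, against 382 with the DESeq2 test, 476 with total count scaling and 210 to 1738 with a library left out, and that of the XL413 effect 1510, against 746 with the DESeq2 test and 496 to 1899 with a library left out. The DESeq2 test also called fewer genes inside a line: 2488 against 4083 for sertraline in Hep3B, 2997 against 4730 for sertraline in Huh7, 1402 against 2894 for XL413 in Hep3B and 1696 against 3487 for XL413 in Huh7.

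The values that changed sign were all uncalled. Total count scaling moved the median of all genes to 0.14 for both drugs against sertraline and against control, and to 0.11 and 0.10 for XL413 inside Hep3B and inside Huh7. With it, FOXA2 was at 0.018 for both drugs against XL413 and PROX1 at 0.0095 for XL413 against control. For both drugs against sertraline FOXA2 was at 0.049 and PROX1 at 0.13, and for both drugs against control HNF4A was at 0.083, HNF4G at 0.081, CEBPA at 0.026 and ONECUT1 at 0.049. FOXA3 was at 0.010 for the interaction. For XL413 inside Hep3B FOXA1 was at 0.048, CEBPA at 0.092 and PROX1 at 0.046, and inside Huh7 HNF4A was at 0.040, FOXA1 at 0.061, FOXA2 at 0.042, FOXA3 at 0.028 and PROX1 at 0.084. The additive model fits a single sertraline effect and a single XL413 effect, whether or not the other drug was given. Its shared effects put FOXA2 at 0.16 for both drugs against XL413, and FOXA1 at -0.055 and FOXA2 at 0.085 for both drugs against sertraline. CEBPA was at 0.0023 with DESeq2 size factors and 0.0022 with the DESeq2 test for the line difference of the sertraline effect, and FOXA3 at -0.0087 with either for sertraline inside Huh7. For the alternatives other than the additive model, the cause was not tested.

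Leaving out each library gave ranges across 0 for FOXA3 with sertraline against control (-0.024 to 0.14). For both drugs against XL413 these were HNF4A (-0.096 to 0.19), FOXA2 (-0.17 to 0.11), FOXA3 (-0.052 to 0.059) and CEBPA (-0.051 to 0.39), and for XL413 against control HNF4A (-0.18 to 0.0027) and ONECUT1 (-0.012 to 0.20). For both drugs against sertraline they were FOXA1 (-0.037 to 0.14), FOXA2 (-0.24 to 0.036) and PROX1 (-0.13 to 0.082), and for both drugs against control HNF4A (-0.19 to 0.099), HNF4G (-0.22 to 0.12), CEBPA (-0.31 to 0.11) and ONECUT1 (-0.18 to 0.031). For the interaction they were HNF4A (-0.27 to 0.023), HNF4G (-0.15 to 0.19), FOXA3 (-0.14 to 0.027), CEBPA (-0.36 to 0.089), ONECUT1 (-0.036 to 0.18) and PROX1 (-0.060 to 0.16). For Hep3B against Huh7 it was CEBPA (-0.076 to 0.14). For the line difference of the sertraline effect they were FOXA2 (-0.00077 to 0.55) and CEBPA (-0.088 to 0.065), and for that of the XL413 effect FOXA1 (-0.16 to 0.14), ONECUT1 (-0.072 to 0.14) and PROX1 (-0.14 to 0.038). Inside a line they were HNF4A with sertraline in Hep3B (-0.085 to 0.12), FOXA2 (-0.083 to 0.13) and FOXA3 (-0.0050 to 0.011) with sertraline in Huh7, FOXA1 (-0.21 to 0.086), FOXA2 (-0.030 to 0.52) and CEBPA (-0.091 to 0.033) with XL413 in Hep3B, and FOXA1 (-0.13 to 0.041), FOXA2 (-0.17 to 0.042) and PROX1 (-0.11 to 0.066) with XL413 in Huh7.

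With 1 library per line and treatment, the data hold no repeat of a treatment inside a line, and leaving out a library leaves a treatment with 1 line, whose sample is assumed to vary like the others. In the fits of drug effects inside a line or compared between lines, the line that lost a library keeps a single pair for each drug. The error then comes from the other line alone.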
